A study of Homo sapiens with 30 samples.

Results

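Matrix metalloproteinases, their tissue inhibitors and the urokinase system were described over all 30 arrays of the series. The members were 10 genes chosen by name, namely the metalloproteinases MMP1, MMP2, MMP7, MMP9, MMP14 and MMP15, the inhibitors TIMP1 and TIMP2, urokinase (PLAU) and its receptor (PLAUR). The array of 41000 probes for 30484 gene names held 12 probes for them, 2 each for MMP15 and TIMP2 and 1 for each other gene. The cells were 5 established lines from human breast cancers, ZR-75-30, SK-BR-3, MDA-MB-361, HCC1954 and HCC1419. Cells of each line received recombinant human BMP4, a secreted ligand of the transforming growth factor beta superfamily, or vehicle, and were collected after 30 min and 1, 3, 6, 12 and 24 h. Each array compared BMP4-treated cells (Cy5 dye) with vehicle-treated cells (Cy3 dye) of 1 line at 1 time point. The cultures of a condition were pooled, so each time point had 5 arrays, 1 per line, and the 5 lines were the replicates. Arrays of 1 line at different time points came from separate pools, but they were not repeats of a condition.

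Matrix metalloproteinases are zinc enzymes that cut collagens, gelatin and other proteins of the extracellular matrix. They are made as inactive proenzymes, and TIMPs bind the active enzymes and block them. MMP14 and MMP15 are anchored in the cell membrane, where MMP14 together with TIMP2 activates proMMP2. Urokinase, held at the cell surface by its receptor, turns plasminogen into plasmin, which degrades fibrin and activates several proMMPs. This network is best known in breast tumors for its part in migration and invasion, and in tumor tissue a large share of it is made by stromal cells, which are not present in these cultures.

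Between 58.9% and 70.6% of all probes on an array were marked well above background for Cy3 and between 56.3% and 70.8% for Cy5. The spike-in controls had slopes of observed on expected log ratio from 0.53 to 0.88, so ratios were compressed. HCC1419 and MDA-MB-361 were each scanned on 1 day of their own, and the other lines on 2 days each out of 7 scan days, so scan day and line cannot be told apart for most pairs of lines. Of 11 probes for luminal epithelial markers 10 were well above background in at least 1 channel on at least 15 arrays. In the vehicle channel CDH1 (E-cadherin) was well above background on none of the 6 SK-BR-3 arrays. The mark in at least 1 channel on at least 15 arrays also held for 1 of 7 fibroblast, 4 of 6 leukocyte and 1 of 4 endothelial marker probes. Most leukocyte probes thus gave signal. DCN and LUM (fibroblast) and PTPRC (leukocyte) were not well above background in the vehicle channel on any array. In HCC1954 the fibroblast marker FAP had a mean vehicle level of 7.90 (log2 Cy3 signal) against at most 6.43 elsewhere and the endothelial marker PECAM1 one of 9.19 against at most 6.51, and the keratin KRT19 was at 11.21 against at least 17.53. The part of such differences in the results below was not tested.

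The vehicle channel gives the level of each member before any BMP4 effect. By limma's moderated F test, 11 of the 12 member probes (91.7%) differed between the lines, against a background of 73.1% of all probes. Their adjusted p lay between 2.26e-18 for PLAU and 4.17e-05 for MMP14. The exception was the TIMP2 probe A_24_P169896, with an adjusted p of 0.144, which no array measured well above background. It stays in all counts and shares over the 12 member probes but is not described on its own. Elsewhere TIMP2 stands for probe A_23_P107401. PLAU, PLAUR, MMP1, MMP2, MMP7 and TIMP1 had their highest mean level in HCC1954, MMP9, MMP15 and TIMP2 in SK-BR-3, and MMP14 in MDA-MB-361. All levels are log2 Cy3 signals after normalization, levels are set side by side only within a probe, and errors after ± are SDs over the 6 arrays of a line unless given as SE. Folds between lines depend on the scaling. From the software's processed signals, scaled to the 75th percentile of each array, the log2 range of line means was 6.63 in place of 5.72 for PLAU, 5.66 in place of 4.02 for TIMP1, 6.98 in place of 6.14 for TIMP2 and 10.08 in place of 6.46 for PLAUR. It was also wider for MMP1 (5.02 in place of 2.11), MMP2 (2.31 in place of 0.55), MMP7 (5.80 in place of 2.19), MMP14 (2.44 in place of 0.94) and MMP15 probe A_23_P100177 (2.07 in place of 1.35).

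**Figure D1:**
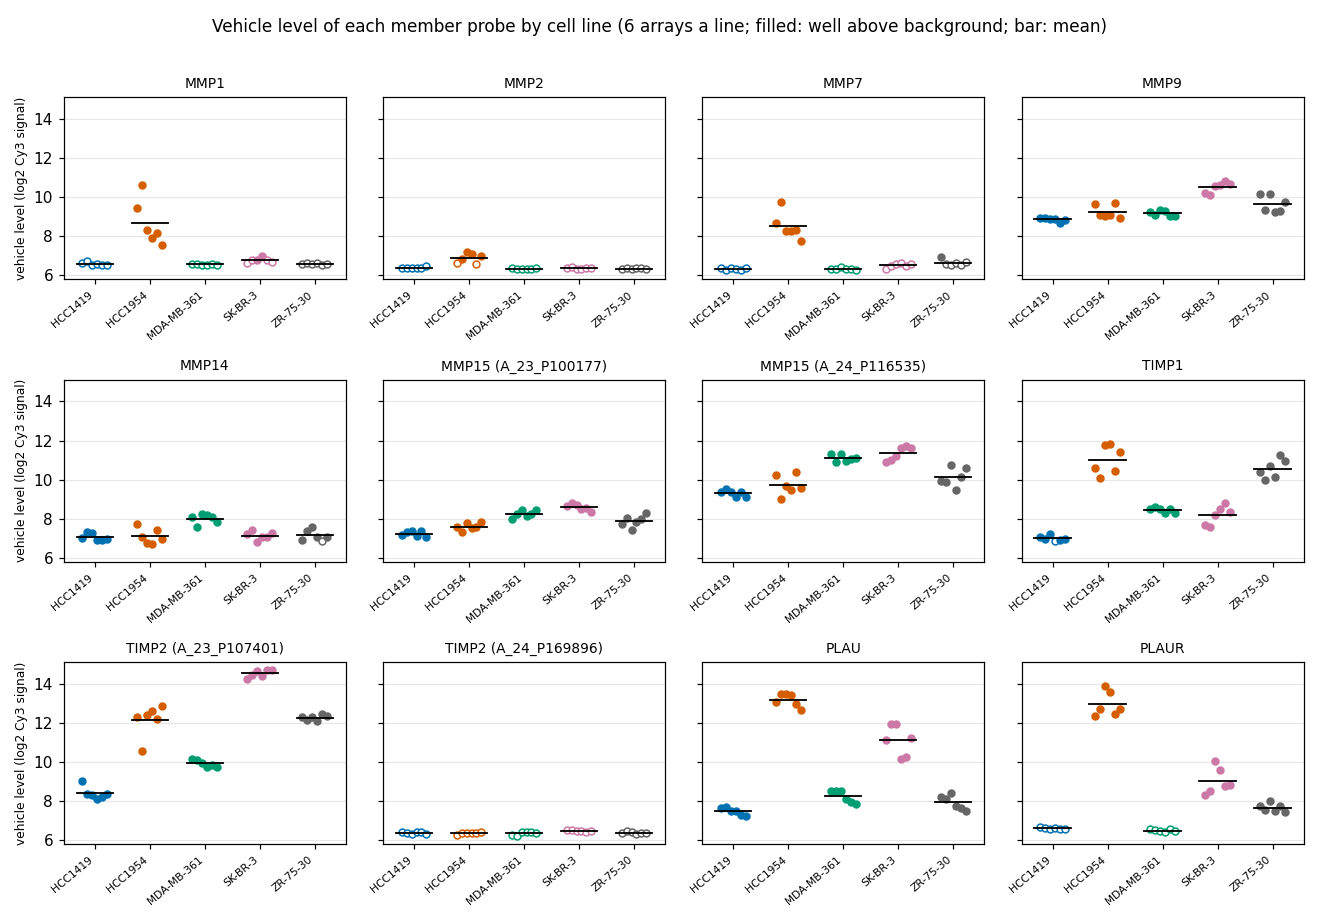
Vehicle level (log2 Cy3 signal, y axis) of each of the 12 member probes in each of the 5 cell lines (x axis), 1 point per array in the order of the time points, filled where the probe was well above background, with the mean as a bar. PLAU and PLAUR lie far above the other lines in HCC1954, TIMP2 is highest in SK-BR-3, and MMP1, MMP2 and MMP7 are open symbols on nearly all arrays outside HCC1954.

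The PLAU probe (chromosome 10, 75347056 to 75347115, hg18) was well above background on all 30 arrays. In HCC1954 its vehicle level was 13.05, 13.50, 13.48, 13.42, 12.97 and 12.67 from 30 min to 24 h, a mean of 13.18, and in SK-BR-3 it was between 10.12 and 11.94, with a mean of 11.10. The mean was 8.23 in MDA-MB-361 (7.84 to 8.53), 7.93 in ZR-75-30 (7.49 to 8.43) and 7.46 in HCC1419 (7.23 to 7.69). HCC1954 was 4.24-fold above SK-BR-3 (log2 difference 2.08 ± 0.18 SE, limma adjusted p 1.12e-09) and 52.7-fold above HCC1419, with no overlap of arrays. SK-BR-3 in turn was 7.30-fold above MDA-MB-361 (adjusted p 2.73e-12). MDA-MB-361 and ZR-75-30 overlapped and were not called different (adjusted p 0.199). On the only scan day that holds arrays of both lines, 3 arrays of HCC1954 had a mean 5.10 above that of 3 arrays of ZR-75-30. Only the 3 h time point was common to these arrays.

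The receptor followed a like order at the top. The PLAUR probe (chromosome 19, 48861338 to 48861397) was well above background on every array of HCC1954, SK-BR-3 and ZR-75-30 and on none of HCC1419 and MDA-MB-361. Its vehicle level in HCC1954 was 12.35, 12.68, 13.86, 13.58, 12.44 and 12.73 over the time points, in SK-BR-3 8.31, 8.50, 10.06, 9.60, 8.78 and 8.83, and in ZR-75-30 7.74, 7.54, 8.02, 7.47, 7.76 and 7.41. No array of one of these lines overlapped another line. HCC1954 was 15.2-fold above SK-BR-3 (log2 difference 3.93 ± 0.20 SE, adjusted p 8.41e-14), 39.0-fold above ZR-75-30, at least 76.6-fold above HCC1419 and at least 84.7-fold above MDA-MB-361. For an "at least" fold, each array of the lower line took its own signal or the lowest signal counted as above background, whichever was higher. The mean of the higher line was then set against the mean of these values. Within the shared scan day the HCC1954 mean was 5.55 above that of ZR-75-30. In both HCC1954 and SK-BR-3 the 3 h and 6 h arrays were the 2 highest for PLAUR. In both lines each array of the later scan day lay above each array of the earlier one, so time and scan day are mixed here.

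The collagenase MMP1 (chromosome 11, 102165907 to 102165966) and matrilysin, MMP7 (chromosome 11, 101899239 to 101899298), were above background on all arrays of HCC1954 and on few others. For MMP1 these others were 2 arrays of SK-BR-3, and for MMP7 1 array of ZR-75-30. The MMP1 vehicle level in HCC1954 averaged 8.68 ± 1.15, at least 4.05-fold above HCC1419, at least 4.10-fold above ZR-75-30 and at least 4.28-fold above MDA-MB-361. SK-BR-3, where 2 of 6 arrays were above background, had a mean of 6.78, lower by 1.90 ± 0.28 (SE) on the log2 scale (adjusted p 3.90e-06), and no fold is given against it. For MMP7 the HCC1954 mean was 8.52 ± 0.67, at least 3.60-fold above SK-BR-3. ZR-75-30, with 1 of 6 arrays above background, averaged 6.66, a log2 difference of 1.86 ± 0.18 SE (adjusted p 6.17e-09). No HCC1954 array overlapped another line for either gene. The gelatinase MMP2 (chromosome 16, 54096763 to 54096822) was above background only on 4 of 6 HCC1954 arrays. Its mean over all 6 arrays of that line, 6.89 ± 0.24, was at least 1.24-fold above HCC1419 (adjusted p 1.63e-06). None of the other 24 arrays reached that mark for MMP2. The SE and p of these level tests came from a spread pooled over the lines. Outside HCC1954 the SD was 0.03 to 0.12 for MMP1, 0.04 to 0.15 for MMP7 and 0.02 to 0.04 for MMP2. For these genes SE and p thus understate the spread of the HCC1954 pools.

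Reference promoter sequence is shown for MMP7, PLAUR and PLAU, whose levels were highest in the same line. Sequences are the 250 bases before the annotated start in RefSeq (GRCh38.p14), and 6 of the 10 members had an entry. Searched on both strands were TGACTCA, which reads TGAGTCA on the other strand, the heptamer that AP-1 factors (FOS and JUN) bind, and GGCGCC, a motif bound by BMP-activated SMADs, and capitals mark matches of either. The windows are chr11:102530748-102530997 for MMP7 (minus strand), chr19:43670170-43670419 for PLAUR (minus strand) and chr10:73910882-73911131 for PLAU (plus strand, the second of its 2 listed starts).
MMP7: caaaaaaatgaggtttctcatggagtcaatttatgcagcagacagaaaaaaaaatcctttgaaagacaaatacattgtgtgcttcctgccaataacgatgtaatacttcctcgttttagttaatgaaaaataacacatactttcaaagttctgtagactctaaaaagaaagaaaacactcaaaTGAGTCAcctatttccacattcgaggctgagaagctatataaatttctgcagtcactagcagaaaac
PLAUR: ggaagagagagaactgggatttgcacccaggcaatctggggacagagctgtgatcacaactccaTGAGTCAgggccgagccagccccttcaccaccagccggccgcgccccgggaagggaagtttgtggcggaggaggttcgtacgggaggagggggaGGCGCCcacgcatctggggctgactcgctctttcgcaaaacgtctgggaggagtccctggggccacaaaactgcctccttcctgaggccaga
PLAU: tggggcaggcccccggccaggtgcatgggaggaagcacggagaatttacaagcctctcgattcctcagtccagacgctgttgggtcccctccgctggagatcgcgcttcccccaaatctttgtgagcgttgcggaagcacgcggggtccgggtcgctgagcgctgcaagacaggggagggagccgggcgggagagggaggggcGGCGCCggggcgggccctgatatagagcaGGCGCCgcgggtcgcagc
The MMP7 window held 1 AP-1 heptamer at -67 and PLAUR 1 at -186, counted from the start, while neither PLAU window held any. GGCGCC occurred 1 time in PLAUR and 2 times in this PLAU window and not in MMP7. Of 35116 promoters of the same length, 4.2% held the AP-1 heptamer and 16.4% held GGCGCC. MMP14, MMP15 and TIMP1, the last also highest in HCC1954, held neither. These are matches of letters, not sites shown to be bound.

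The other metalloproteinases were measured in every line. MMP9, a gelatinase (chromosome 20, 44078528 to 44078587), had a vehicle mean of 10.52 ± 0.28 in SK-BR-3, of 9.67 ± 0.45 in ZR-75-30, of 9.25 ± 0.33 in HCC1954, of 9.19 ± 0.14 in MDA-MB-361 and of 8.87 ± 0.10 in HCC1419. SK-BR-3 was 1.80-fold above ZR-75-30 (adjusted p 1.32e-04) and 3.12-fold above HCC1419, while HCC1954 and MDA-MB-361 were not called different (adjusted p 0.773). MMP14 (chromosome 14, 22385631 to 22385690) lay between 7.59 and 8.24 in MDA-MB-361, while the means of the other lines were 7.06 to 7.14 and their arrays overlapped each other. The lowest MDA-MB-361 array also overlapped arrays of ZR-75-30 and HCC1954. MDA-MB-361 was 1.81-fold above ZR-75-30 (adjusted p 1.01e-04), but with the scan day as a random block the F test for MMP14 gave an adjusted p of 0.103, and MDA-MB-361 had a scan day of its own. Both MMP15 probes (chromosome 16, 56637027 to 56637086 and 56637985 to 56638044) put the lines in the same order, SK-BR-3, MDA-MB-361, ZR-75-30, HCC1954 and HCC1419. The range of line means was 1.35 for the dimmer probe A_23_P100177 and 2.03 for the brighter A_24_P116535. SK-BR-3 was 2.55-fold above HCC1419 by the first and 4.08-fold by the second, and it was called above MDA-MB-361 by the first only (adjusted p 0.0221 and 0.311).

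Of the inhibitors, TIMP2 (probe A_23_P107401, chromosome 17, 74363249 to 74363308) spanned the wider range. Its vehicle mean was 14.53 ± 0.19 in SK-BR-3, followed by 12.27 ± 0.13 for ZR-75-30, 12.14 ± 0.82 for HCC1954, 9.92 ± 0.17 for MDA-MB-361 and 8.39 ± 0.34 for HCC1419. SK-BR-3 was 4.80-fold above ZR-75-30 (log2 difference 2.26 ± 0.23 SE, adjusted p 1.44e-08) and 70.4-fold above HCC1419, and its 6 arrays, from 14.26 to 14.70, lay above all others. ZR-75-30 and HCC1954 overlapped and were not called different (adjusted p 0.741). The HCC1954 mean includes the 1 h array at 10.54, while its other arrays ran from 12.19 to 12.84. On the shared scan day, which lacks that array, HCC1954 lay 0.27 above ZR-75-30, with overlap.

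TIMP1 (chromosome X, 47329610 to 47329669) was highest in HCC1954 (mean 11.02 ± 0.74) and ZR-75-30 (10.56 ± 0.49), which overlapped and were not called different over all arrays (adjusted p 0.138). MDA-MB-361 followed at 8.44 ± 0.13 and SK-BR-3 at 8.18 ± 0.48, and no HCC1419 array exceeded 7.22. HCC1954 was 5.99-fold above MDA-MB-361 (adjusted p 1.63e-09) and 16.2-fold above HCC1419. The TIMP1 level moved with the scan day within HCC1954. It was 10.59, 10.09 and 10.44 on the arrays of 30 min, 1 h and 12 h, scanned on 1 day, and 11.76, 11.84 and 11.40 at 3, 6 and 24 h, scanned on another. On that second day HCC1954 lay 0.90 above ZR-75-30 (30 min, 3 h and 12 h), with no overlap of 3 against 3 arrays. The same scan days of HCC1954 also did not overlap for PLAUR, MMP2 and TIMP2 (higher on the second) or for MMP7, MMP9 and MMP14 (lower). Time and scan day were not varied separately, and their part in these splits was not tested.

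By Pearson correlation of the vehicle level over the 30 arrays, among probes well above background on at least 15 arrays, the 5 probes most like PLAU were those of TM4SF1 (r = 0.985), THC2690347 (0.978), COL12A1 (0.975), PLXNA2 (0.972) and RAC2 (0.972). The points share the 5 lines and the arrays.

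The comparison with BMP4 gave small ratios. No member probe reached a 2-fold change on any of the 30 arrays, against 0.5% of all combinations of probe and array. This count depended on the scaling, since 5 combinations reached it in the series matrix and 5 in the log ratio of the software, 4 of each at probes not above background and 1 of each being MMP15 (A_23_P100177) in ZR-75-30 at 12 h (-1.24 and -1.08). With 1 factor per array TIMP1 in ZR-75-30 at 12 h reached it (-1.21). The share of all combinations of probe and array was not counted in these other settings, so these counts have no background beside them. The largest deviation was that of TIMP1 in ZR-75-30 at 24 h, 1.73-fold lower with BMP4. With limma, 0 of 12 member probes differed from a ratio of 0 at any time point. Among all probes the share called was 1.58% at the last time point (24 h), 0.463% for 12 h arrays, 0.176% for 6 h, 0.349% for 3 h, 0.973% for 1 h and 0.0805% for 30 min. At an unadjusted p under 0.05, 12 of the 72 combinations of member probe and time point passed (16.7%, against 10.9% over all probes), 5 of them for TIMP2, 3 for PLAU, 3 for MMP15 probe A_23_P100177 and 1 for PLAUR, all with a lower level in BMP4-treated cells. Because the dyes were not swapped, any dye bias of a probe is included in its ratio against 0.

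A constant dye bias cancels when time points are compared with each other. Change over time was called for 0 of 12 member probes (background 0.0902%), and so was the late change, the mean of 3 to 24 h minus 30 min with the line as a block (background 0.0927%). In each of these tests 1 member (8.33%) passed an unadjusted p under 0.05, and it was PLAU, against 4.20% of all probes for the change over time and 4.99% for the late change. The median late change was 0 over the 12 member probes and 0.01 over all probes, and 6 of 12 were positive. Within single lines, the mean of 3 to 24 h minus that of 30 min and 1 h was called for 0 of 60 combinations of member probe and line, and 5 (8.33%, against 6.08% over all probes) passed an unadjusted p under 0.05, namely MMP1, MMP7 and PLAU in HCC1954, PLAU in SK-BR-3 and PLAUR in ZR-75-30. Of all probes, 0.0976% were called in SK-BR-3, 0.0683% in MDA-MB-361, 0.0463% in HCC1419, 0.00488% in ZR-75-30 and 0% in HCC1954. A difference of this late change between lines was called for 0 of 12 (background 0.00976%), and 2, MMP1 and MMP7, passed an unadjusted p under 0.05, as did 5.76% of all probes.

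**Figure D2:**
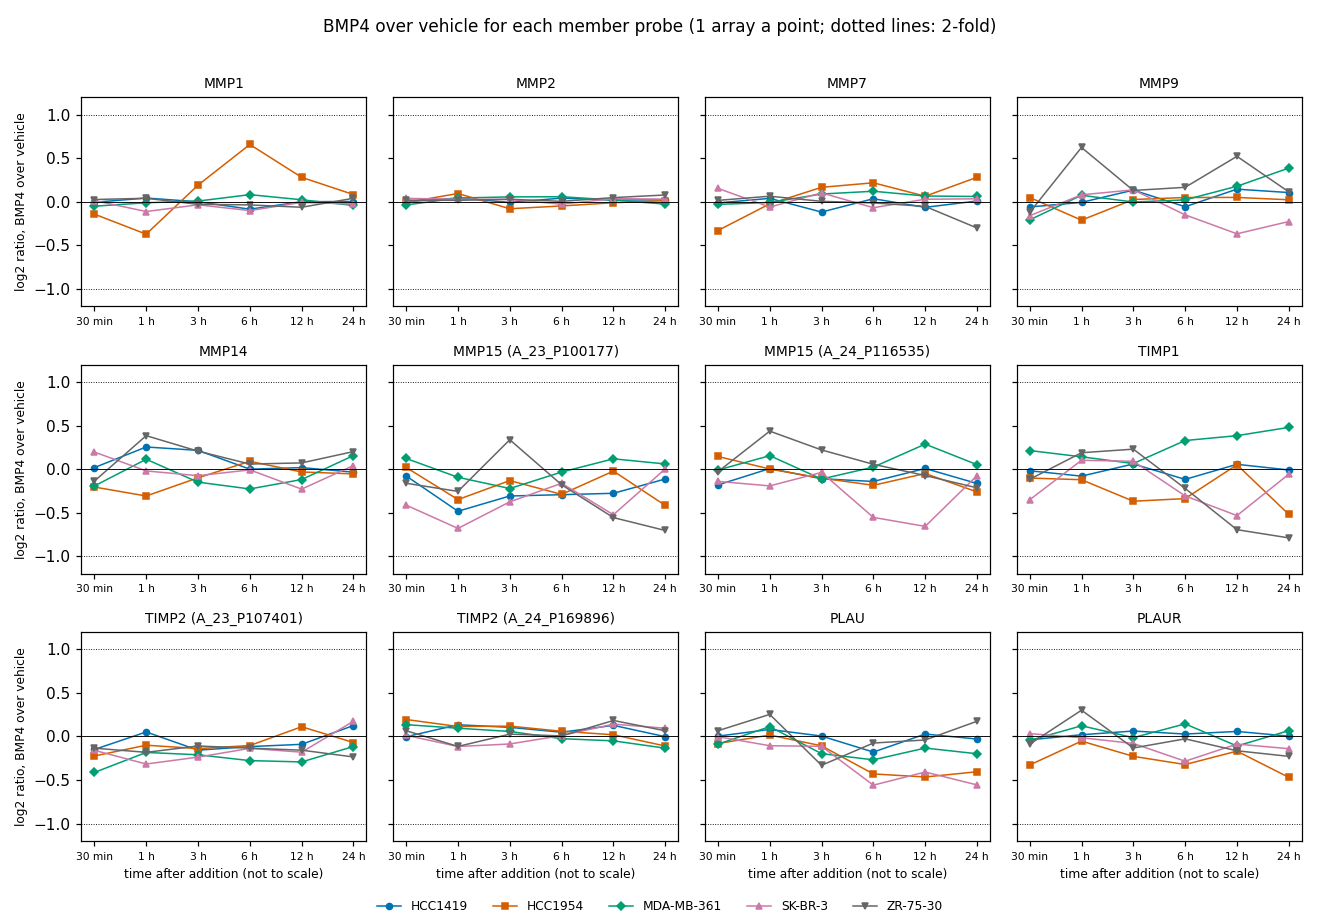
Log2 ratio of BMP4 over vehicle (y axis) for each of the 12 member probes at the 6 time points (x axis), 1 line per cell line and 1 array per point, with dotted lines at a 2-fold change. All points lie between the dotted lines, and the values furthest from 0 are those of TIMP1 in ZR-75-30 and MMP15 in ZR-75-30 and SK-BR-3.

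PLAU, whose product generates plasmin, had the smallest late-change p of the members. Its log2 ratio in HCC1954 was -0.08, 0.02 and -0.11 at 30 min, 1 h and 3 h and -0.43, -0.46 and -0.40 at 6, 12 and 24 h. In SK-BR-3 it was 0.00, -0.11 and -0.11 and then -0.56, -0.41 and -0.56. In both lines each of the 3 later arrays lay below each of the 3 earlier ones. In MDA-MB-361 the ratio was -0.09, 0.11, -0.20, -0.27, -0.13 and -0.20 over the same time points, in HCC1419 0.00, 0.08, 0.00, -0.18, 0.03 and -0.03, and in ZR-75-30 0.07, 0.25, -0.33, -0.08, -0.04 and 0.18. In none of these 3 lines were all later arrays below all earlier ones. The 10 PLAU spots on an array had a median SD of 0.07 on the log2 scale.

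The late change of PLAU was -0.19 ± 0.07 (SE, limma adjusted p 0.831), negative in all 5 lines, and was not called. A contrast chosen after these values were seen, 6 to 24 h minus 30 min to 3 h, gave -0.20 ± 0.05 with an adjusted p of 0.121 (background 0.212%), again not called. Within lines that contrast was -0.43 ± 0.10 in SK-BR-3 (adjusted p 0.134), -0.38 ± 0.10 in HCC1954 (adjusted p 1), -0.14 in MDA-MB-361, -0.09 in HCC1419 and 0.02 in ZR-75-30. Taken inside 1 scan day it was -0.43 and -0.31 on the 2 days of HCC1954 and -0.39 on the day that held 4 of the 6 SK-BR-3 arrays. On the 2 days of ZR-75-30 it was -0.20 and 0.09. Each of these within-day values has only 1 array on its early or its late side. The lines where these ratios lay lowest, HCC1954 and SK-BR-3, were those with the highest vehicle level of PLAU. The range of line means of the PLAU ratio was 0.30, against 0.29 in the series matrix and 0.16 with 1 factor per array (F test, adjusted p 0.941). The part of the processing in this match was not tested. The 5 probes whose ratios were most like those of PLAU over the 30 arrays were JPH2 (r = 0.695), IER2 (0.682), LOXL1 (0.669), ZNF553 (0.667) and THC2621771 (0.659).

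The ratio averaged over time differed between lines for 3 of 12 member probes (25%), PLAUR, PLAU and TIMP1, which is near the background of 22.2% of all probes. For PLAU the line means of the log2 ratio were -0.29 ± 0.25 in SK-BR-3 and -0.25 ± 0.21 in HCC1954, against -0.13 ± 0.13 in MDA-MB-361, -0.02 ± 0.09 in HCC1419 and 0.01 ± 0.21 in ZR-75-30 (SD over 6 arrays; F test, adjusted p 0.0228). All 3 calls were lost in the series matrix, in the log ratio of the software, when loess was replaced by 1 factor per array, and without MDA-MB-361. Without HCC1419 only PLAUR was still called (all probes 13.1%), and without HCC1954 only PLAU (all probes 19.3%). Scan day cannot be told apart from the lines here except between HCC1954 and ZR-75-30. On their shared day the HCC1954 mean differed from that of ZR-75-30 by -0.21 for each of PLAU, PLAUR and TIMP1. Those arrays had only the 3 h time point in common, so line and time are mixed in this difference. At 3 h the ratios in HCC1954 and ZR-75-30 were -0.11 and -0.33 for PLAU, -0.23 and -0.13 for PLAUR, and -0.37 and 0.23 for TIMP1.

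PLAUR, the receptor, had ratios below 0 on all 6 arrays of HCC1954, -0.33, -0.05, -0.23, -0.32, -0.17 and -0.47 from 30 min to 24 h, with a mean of -0.26 ± 0.14. In SK-BR-3 the values ran from -0.28 to 0.03 and in ZR-75-30 from -0.23 to 0.30, so both overlapped HCC1954. In HCC1419 and MDA-MB-361, where PLAUR was not above background, the means were 0.02 and 0.03. The adjusted p for lines was 0.0139, and without HCC1954 it was 0.384. Most like PLAUR in its ratios were NDNL2 (r = 0.783 over 30 arrays), CDS2 (0.781), ZMYM3 (0.756), an unnamed probe A_24_P341376 (0.743) and CLCF1 (0.743).

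TIMP1, which inhibits most secreted MMPs, had ratios on different sides of 0 in different lines. In MDA-MB-361 its ratio was above 0 on all 6 arrays, 0.21, 0.14, 0.06, 0.33, 0.38 and 0.48 in time order, a mean of 0.27 ± 0.16. In ZR-75-30 it was -0.12, 0.19 and 0.23 up to 3 h and -0.22, -0.70 and -0.79 from 6 to 24 h. HCC1954 had -0.10, -0.12 and 0.05 on its first scan day (30 min, 1 h and 12 h) and -0.37, -0.34 and -0.52 on the second (3, 6 and 24 h). In SK-BR-3 the values lay between -0.53 and 0.10, and in HCC1419 between -0.12 and 0.06. The adjusted p for differences between lines was 0.0456 and was 0.679 without MDA-MB-361.

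With the contrast of 6 to 24 h minus 30 min to 3 h, chosen after the values were seen, TIMP1 in ZR-75-30 was the only member called within a line. The difference there was -0.67 ± 0.15 (SE pooled over the lines, adjusted p 0.0119). The background in that line was 6.89% of all probes called. The TIMP1 difference was -0.69 within 1 scan day of ZR-75-30 and -0.75 within the other. Each of these has only 1 array on its early or its late side. With the contrast of 3 to 24 h minus 30 min and 1 h the same line gave -0.41 (adjusted p 0.579). The difference between lines of the 6 h contrast was not called (adjusted p 0.152).

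**Figure D3:**
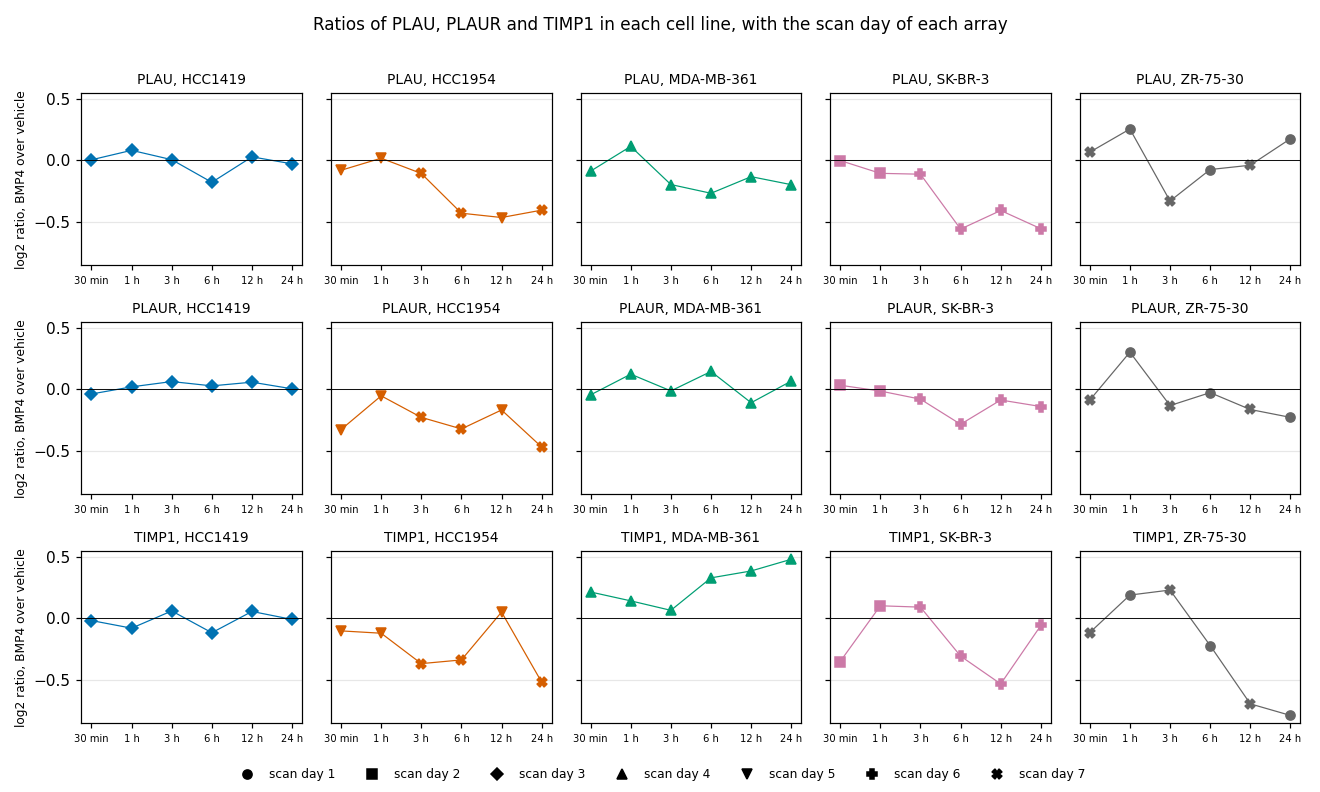
Log2 ratio of BMP4 over vehicle (y axis) of PLAU, PLAUR and TIMP1 (rows) in each cell line (columns) over the time points (x axis), with the symbol giving the scan day of the array. PLAU is lower from 6 h on in HCC1954 and SK-BR-3, TIMP1 reaches -0.79 in ZR-75-30 at 24 h, and TIMP1 in HCC1954 lies lower on the 3 arrays of the second scan day.

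MMP1 and MMP7 had their widest ratios in HCC1954, the line that expressed them. The MMP1 ratio there was -0.14, -0.37, 0.19, 0.66, 0.28 and 0.08 from 30 min to 24 h, while in the other 4 lines, where the probe was mostly not above background, it stayed between -0.11 and 0.08. Late minus early was 0.56 ± 0.10 (SE) in HCC1954, with an adjusted p of 0.156, and was not called. On the scan day with arrays of both phases the difference was 0.54, with only 1 late array. The SE was pooled over the lines and was the same in each. The SD of the MMP1 ratio over time was 0.36 in HCC1954 and 0.04 to 0.05 in the other 4 lines. The SE and p thus understate the spread of the HCC1954 pools, whose late ratios ran from 0.08 to 0.66. MMP7 gave -0.33, -0.02, 0.17, 0.22, 0.06 and 0.28 over the same HCC1954 arrays. Its late minus early was 0.36 with an adjusted p of 0.993, from an SE pooled in the same way. The test of a difference between lines gave an adjusted p of 0.399 for MMP1.

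**Figure D4:**
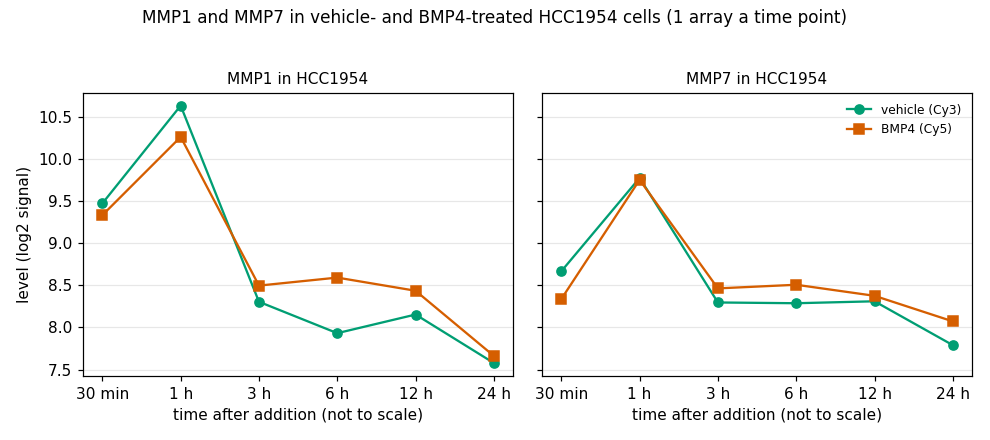
Level (log2 signal, y axis) of MMP1 and MMP7 in vehicle-treated (Cy3) and BMP4-treated (Cy5) HCC1954 cells at the 6 time points (x axis), 1 array per point. Both channels are highest at 1 h, and the BMP4 channel is the lower one at 30 min and 1 h and the higher one from 3 h on.

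Both channels of MMP1 varied more over time than they differed from each other. The vehicle level was 9.47, 10.63, 8.30, 7.93, 8.15 and 7.58 in time order and the BMP4 level 9.33, 10.26, 8.49, 8.59, 8.43 and 7.66. Vehicle and BMP4 were highest together at 1 h and lowest together at 24 h. The 2 channels of a time point share 1 array, so the 1 h peak rests on 1 array. In the vehicle channel that array was also the highest of the line for MMP7 and the lowest for TIMP1 and TIMP2. Its TIMP2 level was 10.54, against 12.19 to 12.84 on the other HCC1954 arrays. Within the scan day that held 30 min, 1 h and 12 h the 12 h array was the lowest in both channels, and no test of the level over time was made.

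The remaining metalloproteinases showed no time course shared by the lines. MMP9 had a late change of 0.17 ± 0.09 (SE, adjusted p 0.965), positive in 4 of 5 lines, and its single values ran from -0.37 in SK-BR-3 at 12 h to 0.62 in ZR-75-30 at 1 h. MMP14 lay between -0.31 and 0.39, with a late change of 0.07 ± 0.07. MMP2, which was near background, stayed between -0.08 and 0.10. The 2 MMP15 probes did not give the same picture. Probe A_23_P100177 was below 0 on 24 of 30 arrays and had a mean of -0.37 ± 0.22 (SD, 5 lines) at 1 h, below 0 in all 5 lines, with an adjusted p of 0.0941. Probe A_24_P116535 had a mean of 0.08 ± 0.23 at 1 h and was above 0 in 4 of 5 lines.

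TIMP2, the inhibitor that also takes part in activating proMMP2, was below 0 on 26 of 30 arrays, from -0.41 to 0.18. The time-point means were -0.22 ± 0.12, -0.15 ± 0.14, -0.17 ± 0.05, -0.15 ± 0.07, -0.12 ± 0.15 and -0.02 ± 0.17 (SD, 5 lines) from 30 min to 24 h. The ratio was lowest at the first time point, in all 5 lines below 0, and its adjusted p there was 0.277. With array weights, limma called TIMP2 at 30 min (-0.18, adjusted p 0.0126) and at 3 h (-0.18, adjusted p 0.0355). The share of all probes called against 0 with array weights was not counted, so these calls have no background beside them. No array had swapped dyes, so a BMP4 effect and a dye bias cannot be told apart. Its late change, free of a constant dye bias, was 0.10 ± 0.06 (adjusted p 0.965).

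Other genes of the same network were followed as 6 lists with 78 probes of 52 genes, comprising the other MMPs, other inhibitors, the plasminogen system, ADAM sheddases, ADAMTS proteases, and cathepsins with membrane serine proteases. None of the 78 probes had a called late change, a called change over time or a called late minus early within a line, and their median late change was 0, with 39 of 78 positive. The smallest late-change p belonged to MMP25, a membrane-anchored metalloproteinase, at -0.17 (adjusted p 0.94), followed by the cathepsin CTSS at 0.11, the serpin SERPINB5 (maspin) at 0.20 and the collagenase MMP8 at 0.10. MMP25 was also the only one of the 78 called against a ratio of 0, at 24 h with a mean of -0.33 (adjusted p 0.0291), where 1.58% of all probes were called and any dye bias is included. For change over time the smallest p were those of MMP25, the membrane protease HPN, the cathepsin CTSB and SERPINB5. Within single lines the largest departures by p were 0.48 for TIMP3 in HCC1419 (adjusted p 0.195), -0.88 for MMP28 in SK-BR-3 (adjusted p 0.104), -0.47 for ADAMTS9 in HCC1954 and 0.23 for ADAM19 in MDA-MB-361.

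Vehicle levels differed between lines for 64 of the 78 related probes (82.1%) and ratios for 12 (15.4%), against 73.1% and 22.2% of all probes. The levels of 15 of 22 other MMP probes, 7 of 7 inhibitor probes, 10 of 12 plasminogen system probes, 10 of 12 ADAM probes, 7 of 10 ADAMTS probes and 15 of 15 cathepsin and serine protease probes were called, and for the ratios 2, 0, 1, 3, 1 and 5 in the same order. The next 2 genes, both of the plasminogen system, were chosen after their values were seen. Tissue plasminogen activator (PLAT) averaged 11.37 in HCC1954 against at most 6.49 in the other lines, and the urokinase inhibitor SERPINB2 12.89 against at most 7.60 (probe A_23_P153185).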

How the data were processed

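Gene expression was measured on 30 two-colour Agilent arrays, 1 for each of 5 lines at 6 time points. The authors pooled the triplicate cultures, labelled RNA of vehicle-treated cells with Cy3 and of BMP4-treated cells with Cy5, and ran Agilent Feature Extraction (9.5.1.1 per the file headers, genome build hg18). The deposited mean and local background signals are intensity values without normalization, and the deposited processed signals are background-subtracted and dye-normalized intensity values. The deposited log ratio is log10 of Cy5 over Cy3. The authors' series matrix holds log2 ratios with a median of 0 on every array, and its columns correlated at 0.9999 or more with the log2 ratio of the processed signals. The deposited p-values of the software were not used.

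Signals were background-corrected by normexp (offset 50), normalized within arrays by loess with 1639 control spots left out, and averaged over the spots of a probe after removal of outlier spots (limma 3.58.1, R 4.3.3). Levels are log2 Cy3 signals after Aquantile normalization. Linear models were fitted in limma (lmFit, eBayes), and p-values, adjusted over all probes by Benjamini-Hochberg, were called at an adjusted p under 0.05. A probe counted as well above background on an array where at least as many of its spots carried the software's mark as did not. All member probes are named; of the related lists, the 4 smallest p per test where none was called. Members and lists were chosen with earlier results of these data known. Replicate numbers are cell lines and so pair the arrays over time; deviations from time-point means correlated at 0.233 on average within lines and at -0.0884 between lines. P-values measure the spread between lines or between pools of a line. In the tests within lines and the tests of vehicle levels the spread between pools was itself pooled over the lines. The number of arrays limits the precision. Tests were checked on simulated data. The alternatives were the software's log ratio, the series matrix, 1 factor per array, a filter on dim probes, array weights, other baselines, blocks, and leaving out each line.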

Additional observations from a re-analysis of the deposited data

Results flagged for a closer look

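Single arrays that stood apart from the other arrays of their group were searched in 132 groups, the 5 lines at a time point for the ratio and the 6 time points of a line for the vehicle level. Dixon's test picked out 8, and chance gives about 1 in 20 groups. For MMP1, HCC1954 stood above the other lines at 3 h (log2 ratio 0.19, others -0.03 to 0.01), 6 h (0.66, others -0.10 to 0.08) and 12 h (0.28, others -0.06 to 0.02). In those other lines MMP1 was mostly not above background, so the MMP1 flags set measured signals against mostly unmeasured ones. The MMP15 probe A_24_P116535 stood high in ZR-75-30 at 3 h (0.22, others -0.11 to -0.04). TIMP1 stood low in HCC1954 at 3 h (-0.37, others 0.06 to 0.23), and TIMP2 in MDA-MB-361 at 6 h (-0.28, others -0.14 to -0.10). In the vehicle level, TIMP2 stood high in HCC1419 at 30 min (9.05, others 8.07 to 8.35) and low in HCC1954 at 1 h (10.54, others 12.19 to 12.84).

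The ratio of BMP4 over vehicle was called different between lines by limma's F test for PLAUR (adjusted p 0.0139), PLAU (0.0228) and TIMP1 (0.0456). These 3 of 12 probes (25%) are near the 22.2% of all probes called, and none of the 3 was called in the series matrix, in the log ratio of the software, with 1 factor per array or without MDA-MB-361.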

How the results depend on the processing

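No member was called for the late change, the change over time or its difference between lines under any alternative run. The line as a random block in the test against 0 left 0 calls, and so did fits of the change over time and the late change with no replicate block. Against 0, 2 calls came with array weights, both TIMP2, and the share of all probes called in that setting was not counted. Within lines, 1 call came with the contrast of 6 to 24 h minus 30 min to 3 h, chosen after seeing the data. The 3 calls between lines became 1 from the log ratio of the software, where 19.1% of all probes were called. From the series matrix it was 1 (all probes 15.6%), again MMP14 as in the log ratio. With 1 factor per array it was 0 (all probes 0.0268%). Leaving out 1 line gave 0 (without MDA-MB-361, all probes 0.234%) to 4 calls (without ZR-75-30, all probes 20.5%). It gave 1 each without HCC1419 (PLAUR, all probes 13.1%) and without HCC1954 (PLAU, all probes 19.3%). Members at 2-fold or more numbered 5 in the log ratio of the software and 5 in the series matrix, 4 of each on arrays where the probe was not above background, and 1 with 1 factor per array (TIMP1 in ZR-75-30 at 12 h, -1.21). The cause of these shifts was not tested. The share of all combinations of probe and array at 2-fold or more was counted only in the main setting. Ranges of vehicle levels were wider from processed signals, but the count of level differences stayed between 8, of 8 probes left by the dim filter, and 12. MMP14 was not called without MDA-MB-361 (adjusted p 0.969), nor MMP2 without HCC1954 (0.601). The PLAU late change ranged from -0.27 to -0.14 (lowest adjusted p 0.0772). Ratios of MMP1, MMP2, MMP7 and, in 2 lines, PLAUR rest on signals near background.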
